A study of Homo sapiens with 5 samples.

Results

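Cells held under an acetyl-CoA carboxylase (ACC) inhibitor for 72 h were compared with cells held under it for 6 h, to describe how the late state of inhibition differs from the early one. The cells are all barcodes of those libraries that passed 2 limits: 1000 or more genes detected, and no more than 20% of UMIs (unique molecular identifiers) from mitochondrial MT genes. They number 1927 of 2057 barcodes at 72 h and 3006 of 3016 at 6 h, together 4933 of the 15095 cells kept in the series. The cell line is MDA-MB-468, an established human breast cancer line known as triple-negative, and every library came from it. The inhibitor carries the name PF0517515 in the labels, which give neither its dose nor a vehicle. Each group is 1 single-cell library: cells given the inhibitor for 72 h, cells given it for 6 h, untreated cells at 72 h and untreated cells at 0 h. A library of cells in recovery after 72 h of inhibitor enters no comparison, so highest and lowest below mean among these 4 libraries. The recovery level is given for some genes only, and where it is not given nothing is said of that library.

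The 72 h and 6 h inhibitor libraries differ both in the length of exposure and in the time of sampling, and no untreated 6 h library is used here. The untreated ratio, 72 h over 0 h, is therefore given beside the inhibitor ratio, 72 h over 6 h, although it spans a longer interval. With 1 library a group there is no spread between samples and no test. Every ratio describes these libraries, and the ranges in parentheses after folds and shares are exact 95% intervals. They cover counting error only, of UMIs for folds and of cells for shares.

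ACC carboxylates acetyl-CoA to malonyl-CoA, the building block of fatty acid synthesis and chain elongation, and malonyl-CoA also restrains the entry of fatty acids into mitochondria. The lipid composition of the endoplasmic reticulum (ER) membrane is sensed by the unfolded protein response. In that response IRE1 and ATF6 raise the ER's chaperones and degradation machinery, while the kinase PERK, like GCN2 in amino acid shortage, phosphorylates eIF2 and so favours translation of ATF4, which drives amino acid genes and, later, CHOP. Sterol and fatty acid synthesis genes answer to the SREBP factors, which are themselves activated from the ER.

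Libraries held 85376888 UMIs at 72 h and 106673213 at 6 h of inhibitor, against 93898612 at 72 h and 114350566 at 0 h untreated. The median cell had 41573 UMIs at 72 h of inhibitor and 28980 to 33712.5 in the other 3 libraries. Cells of fewer than 10000 UMIs made up 6.95% at 72 h of inhibitor and 0.632% at 6 h. Ribosomal protein genes took 25.5% of UMIs at 72 h and 17.3% at 6 h of inhibitor, against 16.7% at 72 h and 18.7% at 0 h untreated. Between 2 and 4 barcodes of the 72 h inhibitor library were shared with each of the other 3. The 6 epithelial markers (EPCAM, CDH1, KRT7, KRT8, KRT18, KRT19) were present in all 4 libraries and summed to 5737 CPM (UMIs per 1000000 UMIs of the library) at 72 h and 9939 CPM at 6 h of inhibitor, against 7925 CPM at 72 h and 11186 CPM at 0 h untreated. PGR, the progesterone receptor gene, had at most 4 UMIs in a library, and ESR1 (4.37 CPM at 72 h, 12.5 CPM at 6 h) and ERBB2 (10.4 CPM at 72 h, 9.6 CPM at 6 h) were low. Of the off-lineage markers, COL1A2, NKG7 and INS were at 0 and HBB, HBA1, ALB and GFAP had at most 7 UMIs each. Mesenchymal markers (VIM, FN1, CDH2, COL1A1 and COL1A2) summed to 17.6 CPM at 72 h and 24.5 CPM at 6 h of inhibitor. VIM (5.68 and 13.6 CPM) and FN1 (8.16 and 8.14 CPM) made up most of these sums. Untreated, the mesenchymal markers summed to 20.3 CPM at 72 h and 24.0 CPM at 0 h. The 6 immune markers summed to 7.30 CPM at 72 h and 3.25 CPM at 6 h of inhibitor, nearly all of it CD68 (7.07 and 2.86 CPM), a lysosomal protein gene also expressed outside macrophages.

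Genes were compared where they reached 10 CPM in at least 1 of the libraries concerned. Of 9359 such genes, 427 (4.56%) were more than 2-fold higher and 1052 (11.2%) more than 2-fold lower at 72 h than at 6 h of inhibitor. The lean was the other way in untreated cells, where 517 of 9303 genes (5.56%) were more than 2-fold higher and 138 (1.48%) more than 2-fold lower at 72 h than at 0 h. The median gene had a log2 ratio of -0.18 under the inhibitor and 0.10 without it. The higher genes of both comparisons overlapped in 175, which is 41.0% of those of the inhibitor and 33.8% of the untreated ones. The lower genes overlapped in 110, which is 10.5% of those of the inhibitor but 79.7% of the untreated ones. Of the 1052 genes lower at 72 h of inhibitor, 707 (67.2%) stayed within 1.5-fold of their 0 h level in untreated cells. Of the 427 higher ones, 116 (27.2%) did, and 97.0% leaned upward in untreated cells too. Over all 9303 genes compared untreated, 15.9% were more than 1.5-fold higher and 6.2% more than 1.5-fold lower. The rest stayed within 1.5-fold, and 58.9% of all genes leaned upward. Past 1.5-fold in the same direction untreated were 28.1% of the 1052 lower genes and 72.4% of the 427 higher ones.

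These splits depend on how libraries are scaled. Median-of-ratios scaling moved all inhibitor log2 ratios up by 0.13 and all untreated ones down by 0.28. The 2-fold counts then became 572 higher and 802 lower under the inhibitor, and 235 higher and 335 lower untreated. Values below are on the CPM scale, so an untreated log2 median between 0 and 0.28 turns negative under that scaling.

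**Figure D1:**
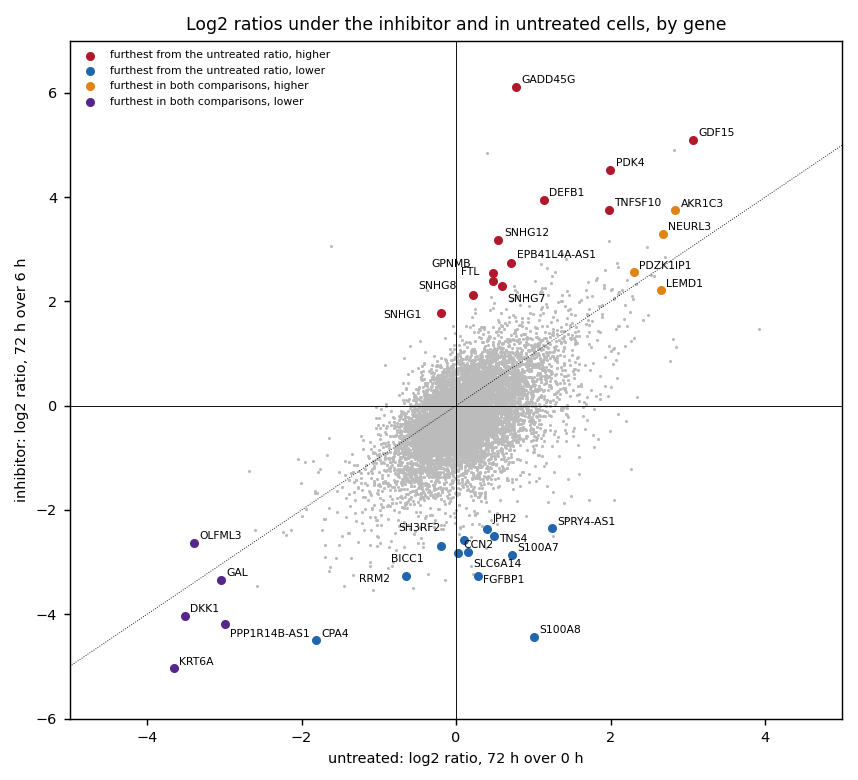
Log2 ratio of 72 h over 6 h of inhibitor (vertical axis) against the log2 ratio of 72 h over 0 h untreated (horizontal axis) for 9684 genes of at least 10 CPM in 1 of the 4 libraries. Coloured points are the named genes furthest from the untreated ratio or furthest in both comparisons, the dotted line marks equal ratios, and GADD45G stands highest at an inhibitor log2 ratio of 6.11.

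The inhibitor log2 ratio minus the untreated one was above 1 for 114 of 9684 genes (1.18%) and below -1 for 1204 (12.4%), with 491 and 458 under median-of-ratios scaling. Across these genes the pair of ratios had a Pearson correlation of 0.56 and a Spearman correlation of 0.51, which describes genes in 4 libraries and not independent replicates. At the high end, GADD45G, a stress gene that binds cell cycle kinases and PCNA (chr9:89605013-89606555 on GRCh38), had 310.0 CPM at 72 h and 4.48 CPM at 6 h of inhibitor, against 8.68 CPM at 72 h and 5.07 CPM at 0 h untreated. It was 69.2-fold (63.2 to 75.9) higher under the inhibitor and 1.71-fold higher untreated, where it stayed below 10 CPM, and was detected in 55.8% of cells at 72 h and 1.8% at 6 h when each cell was thinned to 5000 UMIs. All cells are of 1 line, so no cell type that lacks the gene gives a background for these shares. The endothelial markers PECAM1, VWF and CDH5, much scarcer in RNA, were detected in 0.214%, 0.0535% and 0.0535% of thinned cells at 72 h and in 0.434%, 0.0334% and 0.167% at 6 h, which does not measure the background of GADD45G.

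DEFB1, which encodes an antimicrobial defensin, had 443 CPM at 72 h and 28.6 CPM at 6 h of inhibitor, against 75.9 CPM at 72 h and 34.5 CPM at 0 h untreated. PDK4, whose kinase turns off pyruvate dehydrogenase and so spares glucose, had 21.6 CPM at 72 h and 0.937 CPM at 6 h of inhibitor, against 2.3 CPM at 72 h and 0.577 CPM at 0 h untreated. Both were highest by far at 72 h of inhibitor, 15.5-fold (14.9 to 16.1) and 23.1-fold (18.9 to 28.5) above 6 h. TNFSF10, the gene of the death ligand TRAIL, had 192 CPM at 72 h and 14.2 CPM at 6 h of inhibitor, against 185 CPM at 72 h and 47 CPM at 0 h untreated. Its 72 h levels with and without inhibitor lay close together, and the 13.5-fold (12.8 to 14.3) inhibitor ratio exceeded the untreated one (3.94-fold higher) with 6 h of inhibitor the lowest of the 4 libraries. GPNMB, a glycoprotein gene of the lysosomal stress response, had 59.4 and 10.1 CPM at 72 h and 6 h of inhibitor, a 5.86-fold (5.49 to 6.26) higher level, against 8.98 and 6.45 CPM at 72 h and 0 h untreated.

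Among the lowest genes by the same rule, S100A8 and S100A7, which encode the calprotectin subunit and psoriasin, had 34.8 and 749 CPM and 139.8 and 1016 CPM at 72 h and 6 h of inhibitor. In untreated cells their levels were 1789.7 and 889.5 CPM and 2493 and 1511 CPM at 72 h and 0 h. Both were thus lower at 72 h under the inhibitor, 21.6-fold (20.8 to 22.4) and 7.26-fold (7.13 to 7.4), and higher at 72 h without it. FGFBP1, a carrier of fibroblast growth factors, was 9.63-fold (9.03 to 10.3) lower at 11.4 and 110.3 CPM, and CPA4, a carboxypeptidase, 22.7-fold (20 to 25.8) lower at 3.01 and 68.2 CPM at 72 h and 6 h. FGFBP1 was 1.22-fold higher in untreated cells, but CPA4 was 3.53-fold lower there as well. SLC6A14, an amino acid transporter, TNS4, a focal adhesion protein, BICC1, an RNA-binding protein, JPH2, a junction protein of ER and plasma membrane, and SH3RF2, a ubiquitin ligase gene, were 7.03-fold, 5.66-fold, 6.45-fold, 5.14-fold and 5.99-fold lower at 72 h than at 6 h of inhibitor. In untreated cells these 5 genes differed by at most 1.4-fold between 72 h and 0 h. SPRY4-AS1 was 5.1-fold lower too and 2.37-fold higher untreated, but is an antisense gene whose reads cannot be told from those of its partner without a known strand setting.

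**Figure D2:**
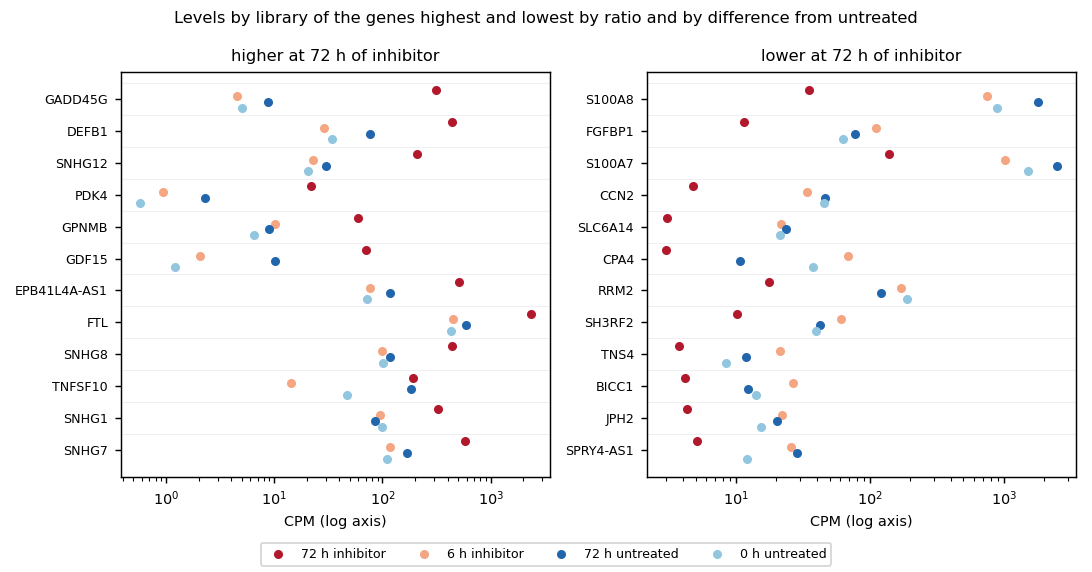
Levels in CPM (log axis) of the 12 genes highest and the 12 lowest by the smaller of the inhibitor log2 ratio and its difference from the untreated ratio, in the 4 libraries, 1 point a library with no replicates. GADD45G reaches 310.0 CPM at 72 h of inhibitor and stays at 4.48 to 8.68 CPM in the other 3 libraries.

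Other genes stood far apart at 72 h both with and without the inhibitor. GDF15, a stress cytokine gene, had 69.8 CPM at 72 h and 2.04 CPM at 6 h of inhibitor, against 10.1 CPM at 72 h and 1.2 CPM at 0 h untreated. It was 34.2-fold (29.9 to 39.3) higher at 72 h than at 6 h of inhibitor and 8.39-fold higher in untreated cells. AKR1C3, an aldo-keto reductase gene with near-identical relatives among which reads may be split, was 13.5-fold (12.4 to 14.6) higher under the inhibitor and 7.15-fold higher untreated. PDZK1IP1 (5.9-fold and 4.92-fold higher), LEMD1 (4.65-fold and 6.29-fold higher) and NEURL3 (9.83-fold and 6.38-fold higher) also stood high in both comparisons. On the low side, KRT6A, a keratin of activated epidermis with a close relative in KRT6B, had 2.55 CPM at 72 h and 83.9 CPM at 6 h of inhibitor, against 4.15 CPM at 72 h and 52.2 CPM at 0 h untreated. DKK1, an inhibitor of Wnt signalling, had 2.59 CPM at 72 h and 42.2 CPM at 6 h of inhibitor, against 2.07 CPM at 72 h and 23.5 CPM at 0 h untreated. These levels were near the bottom at 72 h in both arms, 32.9-fold (28.7 to 37.8) and 16.3-fold (14.2 to 18.7) lower than at 6 h under the inhibitor. GAL, which encodes the neuropeptide galanin, and OLFML3, a secreted glycoprotein gene, were 10.1-fold and 6.17-fold lower at 72 h of inhibitor and 8.22-fold lower and 10.5-fold lower untreated.

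A small set passed 1.5-fold in opposite directions. UPP1, the uridine phosphorylase gene, had 832 CPM at 72 h and 378 CPM at 6 h of inhibitor, against 151 CPM at 72 h and 229 CPM at 0 h untreated. SFTA1P, a non-coding transcript, and EXOSC5, an exosome subunit gene, were 1.9-fold and 1.52-fold higher under the inhibitor but 1.6-fold lower and 1.54-fold lower untreated. Among genes that reached 10 CPM in both comparisons, 0 were more than 2-fold higher under the inhibitor and more than 2-fold lower untreated, while 14 were lower under the inhibitor and higher untreated. Over all genes, 4.56% were higher under the inhibitor and 1.48% lower untreated, and 11.2% were lower under the inhibitor and 5.56% higher untreated. The 0 and the 14 thus draw on shares of unlike size. Under median-of-ratios scaling the untreated counts past 2-fold became 235 higher and 335 lower. FYB1, an adaptor protein gene chosen after its values were seen, had 15.7 CPM at 72 h and 1.87 CPM at 6 h of inhibitor, against 0.33 CPM at 72 h and 1.01 CPM at 0 h untreated. FYB1 was outside the count of 0 because it stayed below 10 CPM untreated. Among those 14, FOS, an immediate early transcription factor gene, had 29.5 CPM at 72 h and 80.5 CPM at 6 h of inhibitor, against 206 CPM at 72 h and 101 CPM at 0 h untreated. NR4A1, an orphan nuclear receptor gene of the same class, had 8.05 CPM at 72 h and 28.8 CPM at 6 h of inhibitor, against 71 CPM at 72 h and 31.1 CPM at 0 h untreated. FOS and NR4A1 were both lowest at 72 h of inhibitor and highest at 72 h untreated. SLC7A11, the cystine importer, had 10.6 CPM at 72 h and 26.4 CPM at 6 h of inhibitor, against 19.6 CPM at 72 h and 6.54 CPM at 0 h untreated. SESN2, a leucine sensor upstream of mTORC1, had 14.2 CPM at 72 h and 34.3 CPM at 6 h of inhibitor, against 17.3 CPM at 72 h and 7.19 CPM at 0 h untreated. In SLC7A11 and SESN2 the highest level was at 6 h of inhibitor and the lowest at 0 h untreated. The recovery library had 23.9 CPM of SLC7A11 and, above the 6 h level, 41.8 CPM of SESN2.

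**Figure D3:**
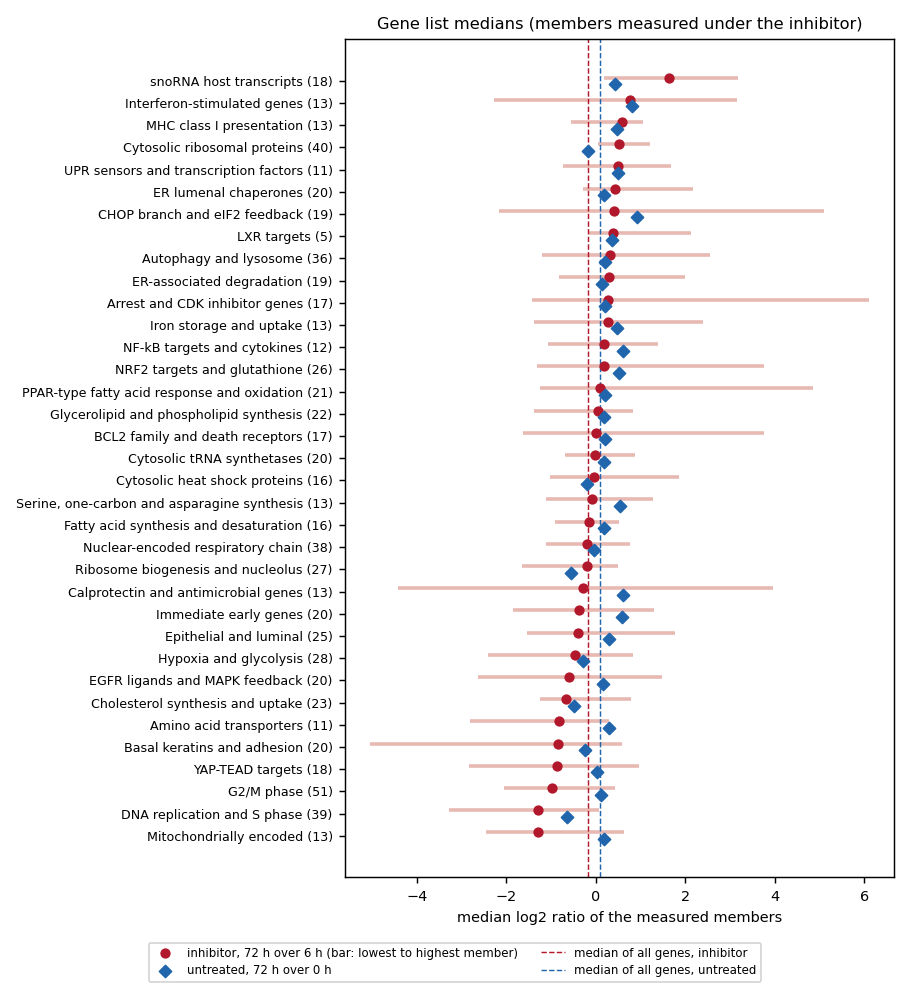
Median log2 ratio of the measured members of each gene list, with the number of members in parentheses, for 72 h over 6 h of inhibitor (circles, bars from the lowest to the highest member) and 72 h over 0 h untreated (diamonds). Dashed lines are the medians of all genes, -0.18 under the inhibitor and 0.10 untreated, and snoRNA host transcripts stand highest at 1.64.

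Gene lists were read against the share of all genes past 1.5-fold, which was 12.1% higher and 25.2% lower under the inhibitor, and 15.9% higher and 6.2% lower in untreated cells. The ER lumenal chaperones leaned upward. Of 20 measured, 17 were higher at 72 h than at 6 h of inhibitor, 8 of them more than 1.5-fold, and 0 were more than 1.5-fold lower. The list median was 0.43 under the inhibitor and 0.19 untreated, where 17 of 20 were higher too, 3 of them more than 1.5-fold. HSPA5, which encodes the main ER chaperone BiP, had 340.4 CPM at 72 h and 75.4 CPM at 6 h of inhibitor, against 129.6 CPM at 72 h and 74.8 CPM at 0 h untreated. MANF, a secreted factor retained in the ER by BiP, had 117 CPM at 72 h and 42.1 CPM at 6 h of inhibitor, against 66.6 CPM at 72 h and 51.9 CPM at 0 h untreated. Both stood highest of the 4 libraries at 72 h of inhibitor, with HSPA5 4.51-fold (4.4 to 4.63) and MANF 2.78-fold (2.69 to 2.89) above 6 h. The recovery library was higher still, at 838 CPM for HSPA5 and 204 CPM for MANF. DNAJC3, DNAJB9, HYOU1 and SDF2L1, partners of BiP in its cycle, were 2.39-fold, 2.34-fold, 2.25-fold and 2.08-fold higher, and untreated 1.33-fold higher, 1.48-fold higher, 1.39-fold higher and 1.14-fold higher. The disulfide isomerases PDIA3 (107 and 89.5 CPM at 72 h and 6 h) and PDIA6 (351 and 309.8 CPM) differed by at most 1.19-fold, and CRELD2 was lower at 72 h (28.3 and 34.7 CPM). Untreated, PDIA3 was 1.21-fold higher, PDIA6 1.14-fold higher and CRELD2 1.32-fold lower.

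The HSPA5 and ERO1B promoters are shown. Of the measured chaperone and degradation genes that carry the ER stress response element, these had the largest inhibitor log2 ratios. The element is CCAAT and CCACG set 9 bases apart. It was searched on both strands and found in 0.0769% of all 35116 RefSeq promoters. ERO1B encodes an ER oxidase and had 24.4 and 9.9 CPM at 72 h and 6 h of inhibitor, but 17.8 and 6.4 CPM at 72 h and 0 h untreated. Its inhibitor log2 ratio minus the untreated one was -0.17 and turned to 0.24 under median-of-ratios scaling. The sequences are from RefSeq (GRCh38.p14), 250 bases up to the start, 5′ to 3′ on the gene's own strand, with the element in capitals: chr9:125241344-125241593, minus strand, and chr1:236281959-236282208, minus strand.
HSPA5: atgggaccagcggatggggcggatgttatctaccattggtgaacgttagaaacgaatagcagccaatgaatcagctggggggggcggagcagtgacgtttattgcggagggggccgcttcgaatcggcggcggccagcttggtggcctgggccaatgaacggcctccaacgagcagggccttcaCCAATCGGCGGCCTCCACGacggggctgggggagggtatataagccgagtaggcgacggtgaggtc
ERO1B: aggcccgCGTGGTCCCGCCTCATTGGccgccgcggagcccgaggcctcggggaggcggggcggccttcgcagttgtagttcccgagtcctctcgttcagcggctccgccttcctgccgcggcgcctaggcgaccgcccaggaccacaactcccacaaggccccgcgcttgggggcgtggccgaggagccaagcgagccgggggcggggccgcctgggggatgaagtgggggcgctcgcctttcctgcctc
The element was held by 6 of the 35 measured chaperone and degradation genes with a promoter in the table (HSPA5, HSP90B1, CALR, CANX, CRELD2 and ERO1B). Their inhibitor log2 ratios ran from -0.30 for CRELD2 to 2.17 for HSPA5, so genes with the same letters did not move alike. HERPUD1, MANF, SEL1L, DNAJC3, DNAJB9, SYVN1, HYOU1 and SDF2L1 were also more than 2-fold higher, and the element was not found in their promoters. A match is a description, not a site or a cause.

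ER-associated degradation, which returns misfolded proteins to the proteasome, was split. Its list median was 0.31 under the inhibitor and 0.14 untreated, with 6 of 19 more than 1.5-fold higher and 2 lower, and the median difference of -0.04 became 0.37 under median-of-ratios scaling. HERPUD1, a scaffold of the degradation complex, had 278 CPM at 72 h and 70.4 CPM at 6 h of inhibitor, against 103 CPM at 72 h and 41.3 CPM at 0 h untreated, and was 3.95-fold (3.85 to 4.06) higher under the inhibitor. SEL1L and SYVN1, the core of the ubiquitin ligase, had 31.6 and 12.8 CPM and 32.4 and 14 CPM at 72 h and 6 h. The ligase core was thus over 2-fold higher (2.46-fold and 2.32-fold, and untreated 1.25-fold higher and 1.27-fold higher), whereas VCP, the ATPase that extracts substrates, was 1.77-fold lower (206 and 364 CPM), as it was untreated (274 and 396 CPM).

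Of 11 sensors and transcription factors of the response, 5 were more than 1.5-fold higher at 72 h of inhibitor and 1 lower, and in untreated cells 5 and 0. CREBRF, a regulator that restrains CREB3, had 65.6 CPM at 72 h and 20.4 CPM at 6 h of inhibitor, against 15.7 CPM at 72 h and 8.68 CPM at 0 h untreated, and was 3.22-fold (3.06 to 3.38) higher. XBP1, the target of IRE1, had 202 CPM at 72 h and 127 CPM at 6 h of inhibitor, against 189 CPM at 72 h and 82.5 CPM at 0 h untreated. ERN1 and EIF2AK3, the genes of IRE1 and PERK, were 1.56-fold and 1.52-fold higher, and 1.83-fold higher and 2.57-fold higher untreated. Their levels at 72 h were alike or higher with inhibitor, but 6 h of inhibitor already stood above 0 h untreated. ATF4 mRNA was flat, with 256 CPM at 72 h and 273 CPM at 6 h of inhibitor, against 256 CPM at 72 h and 266 CPM at 0 h untreated. Splicing of XBP1 and translation of ATF4, by which the pathway acts, cannot be read from counts per gene.

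The CHOP branch spread widely, from GDF15 above (5.09 on the log2 scale) to CHAC1 below (-2.16). Of 19 measured genes, 8 were more than 1.5-fold higher and 4 lower at 72 h of inhibitor, with a median of 0.41, and in untreated cells 12 of 17 were higher and 1 lower, with a median of 0.92. DDIT3, the gene of CHOP, had 213 CPM at 72 h and 71.6 CPM at 6 h of inhibitor, against 59.7 CPM at 72 h and 18.5 CPM at 0 h untreated. The highest level was at 72 h of inhibitor, yet its 2.98-fold (2.9 to 3.06) ratio was close to the untreated one (3.22-fold higher). NUPR1, a small stress-induced chromatin protein gene, had 735 CPM at 72 h and 157 CPM at 6 h of inhibitor, against 357 CPM at 72 h and 111 CPM at 0 h untreated. BBC3, which encodes the pro-apoptotic PUMA, had 23.9 CPM at 72 h and 6.47 CPM at 6 h of inhibitor, against 7.12 CPM at 72 h and 3.16 CPM at 0 h untreated. CEBPB, a partner of CHOP, was 2.64-fold (2.6 to 2.69) higher at 509 and 193 CPM, and TRIB3, a pseudokinase that restrains the response, 1.6-fold (1.56 to 1.63) higher at 242 and 151 CPM at 72 h and 6 h. Untreated they were 1.7-fold higher and 1.75-fold higher.

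CHAC1, which degrades glutathione, took the opposite course. It had 4.24 CPM at 72 h and 18.9 CPM at 6 h of inhibitor, against 9.76 CPM at 72 h and 3.63 CPM at 0 h untreated, so it was 4.47-fold (3.99 to 5.01) lower at 72 h than at 6 h of inhibitor and 2.69-fold higher untreated, where it stayed below 10 CPM. ATF5, a relative of ATF4, was 3.19-fold (2.85 to 3.58) lower (4.5 and 14.3 CPM), as it was untreated (5.73 and 20 CPM), and STC2, a secreted glycoprotein gene, stood at 29 and 43.8 CPM with inhibitor and 19.5 and 7.8 CPM without. CHAC1, SESN2 and STC2 were each highest at 6 h of inhibitor of all 4 libraries. The recovery library had more SESN2, at 41.8 CPM against 34.3 CPM at 6 h of inhibitor. The CHAC1 promoter (chr15:40953221-40953470, plus strand, RefSeq GRCh38.p14, 250 bases up to the start) is shown because the gene is a known ATF4 target and holds the core of the amino acid response element, TGATGNAA, in capitals as it reads on the other strand.
CHAC1: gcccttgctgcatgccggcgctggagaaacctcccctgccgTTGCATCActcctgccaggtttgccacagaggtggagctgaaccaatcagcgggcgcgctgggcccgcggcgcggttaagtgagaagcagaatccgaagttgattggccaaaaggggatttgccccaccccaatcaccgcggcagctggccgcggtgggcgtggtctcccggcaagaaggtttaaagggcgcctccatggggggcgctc
That core was found, on both strands searched, in 3.62% of all promoters and in 7 of the 34 measured CHOP branch, serine and transporter genes with a promoter in the table (PPP1R15B, CHAC1, ATF3, MTHFD1L, SLC3A2, SLC7A1 and SLC38A1). Of these, SLC3A2 was higher at 72 h (351 and 288 CPM at 72 h and 6 h of inhibitor), and CHAC1, MTHFD1L, SLC7A1 and SLC38A1 were lower (-2.16, -0.96, -0.85 and -0.63 on the log2 scale). Untreated, SLC3A2 was 1.12-fold higher, MTHFD1L 1.16-fold higher, SLC7A1 1.25-fold higher and SLC38A1 1.02-fold higher.

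**Figure D4:**
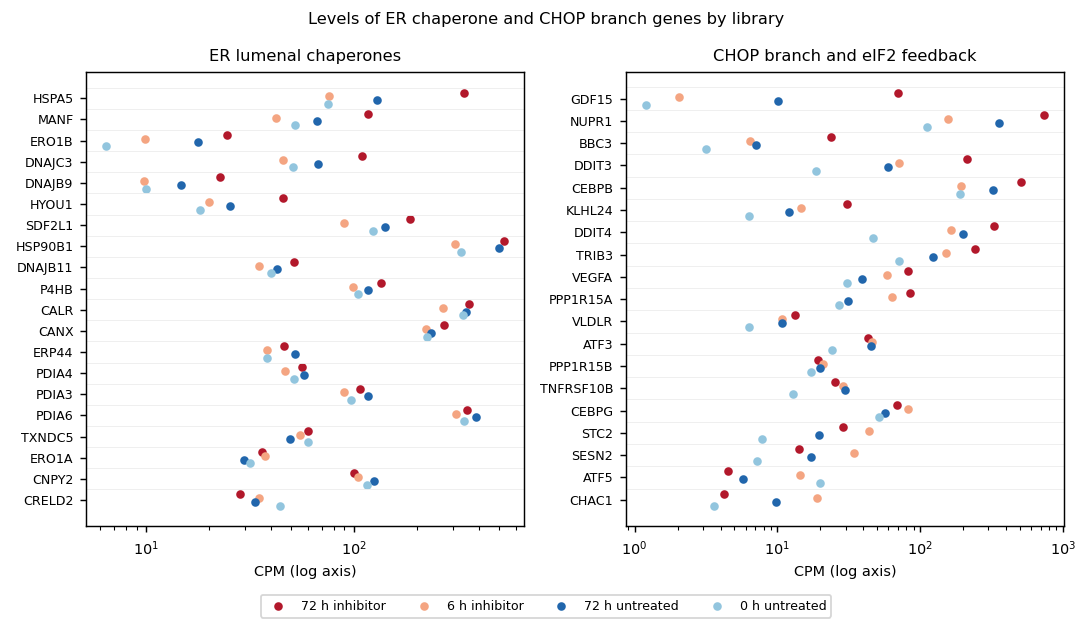
Levels in CPM (log axis) of the measured ER lumenal chaperones (left) and CHOP branch genes (right) in the 4 libraries, 1 point a library with no replicates, ordered by the inhibitor ratio. HSPA5 reaches 340.4 CPM at 72 h of inhibitor, and CHAC1 stands highest, at 18.9 CPM, at 6 h.

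Amino acid transporters were lower at 72 h than at 6 h of inhibitor in 10 of 11 cases, 7 of them more than 1.5-fold. Their median was -0.82 under the inhibitor and 0.29 untreated, and the median difference of -1.03 kept its sign under median-of-ratios scaling (-0.62). SLC7A5, the large neutral amino acid carrier, had 83.3 CPM at 72 h and 119 CPM at 6 h of inhibitor, against 68.2 CPM at 72 h and 47.7 CPM at 0 h untreated. SLC7A1, a carrier of cationic amino acids, had 35.4 CPM at 72 h and 64 CPM at 6 h of inhibitor, against 38.2 CPM at 72 h and 30.5 CPM at 0 h untreated. SLC6A9, a glycine carrier, had 13.8 CPM at 72 h and 29.1 CPM at 6 h of inhibitor, against 25 CPM at 72 h and 15.1 CPM at 0 h untreated. In all 3, 6 h of inhibitor was the highest library, and 72 h of inhibitor was near or below 72 h untreated for SLC7A1 and SLC6A9 and above it for SLC7A5. Serine, one-carbon and asparagine synthesis was mixed, with 3 of 13 more than 1.5-fold higher and 4 lower. PSAT1 and PSPH, enzymes of serine synthesis, had 83.5 and 139 CPM and 80.3 and 175 CPM at 72 h and 6 h, so both were lower, though untreated they were 1.65-fold higher and 1.29-fold higher, while PHGDH, the first enzyme of that route, was higher (491 and 344 CPM) as it was untreated (489.7 and 305 CPM). PYCR1, of proline synthesis, was 2.43-fold (2.32 to 2.53) higher (71.1 and 29.3 CPM) and 1.98-fold higher untreated. The list's median of -0.08 under the inhibitor turned to 0.05 under median-of-ratios scaling, and that of the 20 cytosolic tRNA synthetases turned from -0.02 to 0.11. Among the synthetases, WARS was 1.83-fold (1.75 to 1.92) higher under the inhibitor and 1.94-fold higher untreated, and HARS was 1.62-fold (1.53 to 1.71) lower under the inhibitor and 1.25-fold lower untreated.

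Of the inhibitor's target genes, ACACA, the gene of ACC1, had 32.9 CPM at 72 h and 61.5 CPM at 6 h of inhibitor, against 57.7 CPM at 72 h and 43.2 CPM at 0 h untreated, and was 1.87-fold (1.79 to 1.95) lower at 72 h than at 6 h of inhibitor but 1.34-fold higher untreated. ACACB, the gene of the mitochondrial ACC2, had 2.6 CPM at 72 h and 6.03 CPM at 6 h of inhibitor, against 3.5 CPM at 72 h and 4.63 CPM at 0 h untreated, which is below the 10 CPM minimum in all 4. Of 16 fatty acid synthesis and desaturation genes, 0 were more than 1.5-fold higher and 4 more than 1.5-fold lower. No untreated member passed 1.5-fold in either direction. The share lower was near the 25.2% of all genes, and the list median of -0.15 under the inhibitor was near the -0.18 of all genes. FASN, the fatty acid synthase, had 39.3 CPM at 72 h and 63.4 CPM at 6 h of inhibitor, against 78.1 CPM at 72 h and 77.5 CPM at 0 h untreated. ACLY, which makes its acetyl-CoA, had 27.1 CPM at 72 h and 44.2 CPM at 6 h of inhibitor, against 34.7 CPM at 72 h and 43.6 CPM at 0 h untreated. SCD, the main desaturase, leaned the other way with 49.5 CPM at 72 h and 34.6 CPM at 6 h of inhibitor, against 31 CPM at 72 h and 38.4 CPM at 0 h untreated. The list's median difference of -0.34 became 0.07 under median-of-ratios scaling.

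Cholesterol synthesis and uptake was lower as a group, with 20 of 23 below their 6 h level and 13 more than 1.5-fold. In untreated cells 9 of 25 were more than 1.5-fold lower, and the list medians of -0.66 with and -0.48 without inhibitor lay close. ACAT2, which starts the mevalonate route, had 54.5 CPM at 72 h and 129 CPM at 6 h of inhibitor, against 93 CPM at 72 h and 133 CPM at 0 h untreated. IDI1, an isomerase within it, had 63.9 CPM at 72 h and 133 CPM at 6 h of inhibitor, against 59.5 CPM at 72 h and 124 CPM at 0 h untreated. Both were lower at 72 h in both arms. INSIG2, which holds SREBP in the ER, was the 1 member more than 1.5-fold higher (48.8 and 28.1 CPM at 72 h and 6 h), and was 1.43-fold higher untreated. The sterol element TCACNCCAC, searched on both strands, was in 1 of 17 measured genes of the list with a promoter in the table (SREBF2) and in 1.13% of all promoters.

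PPAR-type genes, which respond to fatty acids, had a few very high members in a list centred near 0 (median 0.09). ANGPTL4, a secreted lipase inhibitor, had 18.6 CPM at 72 h and 0.647 CPM at 6 h of inhibitor, against 1.43 CPM at 72 h and 1.08 CPM at 0 h untreated, and was 28.7-fold (22.5 to 37.1) higher. PLIN2, a lipid droplet coat protein, had 121 CPM at 72 h and 51.4 CPM at 6 h of inhibitor, against 38.6 CPM at 72 h and 53.2 CPM at 0 h untreated. Along with PDK4 these stood highest at 72 h of inhibitor, while CPT1A, the enzyme that malonyl-CoA restrains, was lower (47.4 and 59.8 CPM at 72 h and 6 h) and UCP2, a mitochondrial carrier, 2.37-fold (2.27 to 2.48) lower (33.6 and 79.8 CPM). Untreated, CPT1A was 1.06-fold higher and UCP2 1.49-fold higher. Of 22 glycerolipid and phospholipid genes, 5 were more than 1.5-fold higher and 2 lower. CHKA, which starts phosphatidylcholine synthesis, had 225 and 134 CPM with inhibitor and 154 and 92.7 CPM without, and GPAT3, an acyltransferase of glycerol phosphate, was 2.62-fold (2.38 to 2.88) lower (6.56 and 17.2 CPM) and below 10 CPM in both untreated libraries (4.06 and 4.77 CPM). MYLIP, an LXR target that encodes a ubiquitin ligase, was 4.38-fold (4 to 4.82) higher (23.7 and 5.41 CPM) and 2.58-fold higher untreated.

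Proliferation genes were lower at 72 h of inhibitor. In the S phase list 37 of 39 were lower, 34 of them more than 1.5-fold, with a median of -1.29. In untreated cells 24 of 40 were more than 1.5-fold lower, with a median of -0.65. RRM2, a subunit of ribonucleotide reductase, had 17.7 CPM at 72 h and 171 CPM at 6 h of inhibitor, against 121 CPM at 72 h and 189.6 CPM at 0 h untreated, and was 9.66-fold (9.17 to 10.2) lower under the inhibitor. UHRF1, which carries DNA methylation through replication, had 1.6 CPM at 72 h and 15.2 CPM at 6 h of inhibitor, against 7.97 CPM at 72 h and 20.1 CPM at 0 h untreated. CCNE2, a cyclin of S phase entry, had 3.56 CPM at 72 h and 22.8 CPM at 6 h of inhibitor, against 10.5 CPM at 72 h and 29.9 CPM at 0 h untreated. RRM2, UHRF1 and CCNE2 were all lowest at 72 h of inhibitor and next lowest at 72 h untreated.

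The G2/M list parted the arms more. Under the inhibitor 47 of 51 were lower, 42 more than 1.5-fold, with a median of -0.99. In untreated cells 4 of 51 were more than 1.5-fold higher and 0 lower, with a median of 0.12. MKI67, the proliferation marker, had 40.4 CPM at 72 h and 149.6 CPM at 6 h of inhibitor, against 119 CPM at 72 h and 174 CPM at 0 h untreated. ASPM, a spindle pole protein gene, had 23.1 CPM at 72 h and 90.2 CPM at 6 h of inhibitor, against 93 CPM at 72 h and 85.3 CPM at 0 h untreated. ANLN, which encodes the cytokinesis scaffold anillin, had 32.4 CPM at 72 h and 134 CPM at 6 h of inhibitor, against 80.4 CPM at 72 h and 115 CPM at 0 h untreated, and was 4.13-fold (3.96 to 4.3) lower under the inhibitor. The 4 higher members were PSRC1 and CENPA (0.44 and 0.10 on the log2 scale) and CKS1B and CKS2, small partners of cyclin-dependent kinases. CKS1B and CKS2 had 252 and 186 CPM and 265 and 224 CPM at 72 h and 6 h. Untreated, CKS1B and CKS2 were 1.42-fold higher and 1.14-fold higher. The ANLN promoter (chr7:36389612-36389861, plus strand, RefSeq GRCh38.p14, 250 bases up to the start) is shown because it holds the cell cycle genes homology region, TTTGAA, on both strands side by side, in capitals.
ANLN: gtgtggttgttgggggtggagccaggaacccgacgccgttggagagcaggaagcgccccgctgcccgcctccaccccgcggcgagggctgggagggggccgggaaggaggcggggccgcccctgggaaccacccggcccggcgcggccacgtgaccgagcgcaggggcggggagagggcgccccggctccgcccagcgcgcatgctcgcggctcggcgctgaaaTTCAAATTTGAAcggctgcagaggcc
These letters, searched on both strands, were in 15.2% of all promoters, in 10.4% of those of the genes compared, and in 32 of the 45 measured G2/M genes with a promoter in the table.

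In cells thinned to 5000 UMIs, the median S phase total was 5 UMIs at 72 h and 13 at 6 h of inhibitor, against 8 at 72 h and 14 at 0 h untreated. The median G2/M total was 5 at 72 h and 15 at 6 h, against 14 at 72 h and 16 at 0 h untreated. Cells at or under 13 S phase and 15 G2/M UMIs made up 71.1% (69.0 to 73.1) at 72 h and 29.1% (27.5 to 30.7) at 6 h of inhibitor, against 44.7% at 72 h and 25.8% at 0 h untreated. Those limits are the medians at 6 h of inhibitor. When the ratio was taken within such cells, whose choice uses the same genes, the G2/M median was 0.05 and the S phase median -1.17. Lower RNA per cell and fewer cycling cells cannot be told apart in the library sums, and the selected cells show only that the G2/M sum depended on which cells were summed. Across cells the S phase and G2/M totals had a Spearman correlation of 0.50 at 72 h (1868 cells) and 0.11 at 6 h (2996 cells), each within 1 library and at 1 depth.

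**Figure D5:**
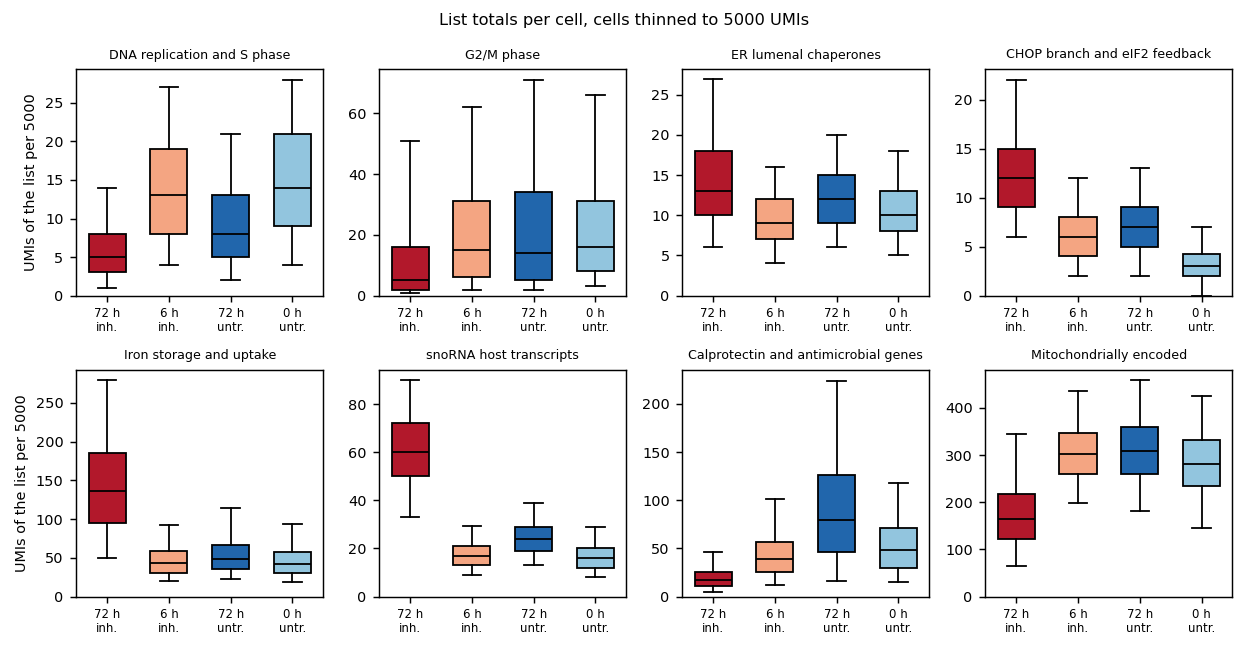
UMIs of 8 gene lists per cell after thinning each cell to 5000 UMIs, in the 4 libraries (1868, 2996, 2885 and 3700 cells). Boxes span the quartiles with the median as a line and whiskers the 5th to 95th percentile of cells, and the CHOP branch median is 12 at 72 h and 6 at 6 h of inhibitor, against 7 at 72 h and 3 at 0 h untreated.

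Arrest genes were divided: 7 of 17 were more than 1.5-fold higher at 72 h of inhibitor and 3 lower, with 6 of 17 higher and 0 lower untreated. CDKN1C, the gene of the kinase inhibitor p57, had 21.4 CPM at 72 h and 6.37 CPM at 6 h of inhibitor, against 13.4 CPM at 72 h and 4.13 CPM at 0 h untreated. CDKN1A, the gene of p21, had 5.31 CPM at 72 h and 14.2 CPM at 6 h of inhibitor, against 12.7 CPM at 72 h and 8.1 CPM at 0 h untreated. MDM2 had 17.1 CPM at 72 h and 37.2 CPM at 6 h of inhibitor. Untreated, it had 26.4 CPM at 72 h and 34.1 CPM at 0 h. CDKN1C was thus highest, and CDKN1A and MDM2 were lowest, at 72 h of inhibitor. CDKN1A was 2.68-fold (2.41 to 2.99) lower there than at 6 h. GADD45A and GADD45B had 445 and 273 CPM and 123 and 62.8 CPM at 72 h and 6 h of inhibitor. Both were also higher at 72 h untreated (1.89-fold higher and 2.29-fold higher). Of 17 BCL2 family and death receptor genes, 5 were more than 1.5-fold higher and 3 lower. MCL1, an anti-apoptotic member, was 2.13-fold (2.06 to 2.21) higher (109 and 51.2 CPM at 72 h and 6 h), BCL2L1, which encodes BCL-XL, 2.14-fold (2.04 to 2.25) lower (25.7 and 55.1 CPM) and BIK, a pro-apoptotic member, 3.1-fold (2.74 to 3.51) lower (3.79 and 11.7 CPM). Untreated, MCL1 was 1.36-fold higher, BCL2L1 1.18-fold higher and BIK 1.49-fold lower.

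Per cell, the ER chaperone total had a median of 13 UMIs at 72 h and 9 at 6 h of inhibitor, against 12 at 72 h and 10 at 0 h untreated. Of cells at 72 h of inhibitor, 41.4% (39.1 to 43.7) lay above the 90th percentile of the 6 h library, against 30.8% at 72 h and 15.5% at 0 h untreated. For the CHOP branch the share was 64.8% (62.6 to 67.0) at 72 h of inhibitor, against 13.4% at 72 h and 1.19% at 0 h untreated. The chaperone and CHOP branch totals were uncorrelated across cells at 72 h (Spearman 0.0036), while chaperones and ER-associated degradation had a correlation of 0.34 at 72 h and 0.072 at 6 h.

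Of 13 iron storage and uptake genes, 5 were more than 1.5-fold higher at 72 h of inhibitor and 1 lower, and untreated 5 and 0. FTH1 and FTL, the ferritin heavy and light chain genes, had 26386 and 8111 CPM and 2346 and 445 CPM at 72 h and 6 h of inhibitor. In untreated cells they had 9608 and 8298 CPM and 595 and 426 CPM at 72 h and 0 h. Both were thus highest of the 4 libraries at 72 h of inhibitor, 3.25-fold (3.25 to 3.26) and 5.27-fold (5.21 to 5.32) above 6 h, with the reservation that both have many pseudogenes that can share reads. The recovery library had 8871 CPM of FTH1 and 1634 CPM of FTL. HMOX1, haem oxygenase, had 52.4 CPM at 72 h and 17.6 CPM at 6 h of inhibitor, against 14.9 CPM at 72 h and 9.59 CPM at 0 h untreated, and TFRC, the transferrin receptor through which iron enters, was 2.61-fold (2.53 to 2.69) lower (67.9 and 177 CPM) and 1.19-fold lower untreated. The iron list's total exceeded the 6 h library's 90th percentile in 84.2% of cells at 72 h of inhibitor, against 15.7% at 72 h and 9.16% at 0 h untreated. That total is mostly FTH1, with 26386 of 29744 CPM at 72 h and 8111 of 9278 CPM at 6 h of inhibitor. The median of the list's members was 0.27 under the inhibitor and 0.48 untreated.

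Of 26 NRF2 target and glutathione genes, 8 were more than 1.5-fold higher at 72 h of inhibitor and 4 lower (median 0.18), and untreated 10 of 25 were higher and 1 lower (median 0.52). Aldo-keto reductases stood high at 72 h in both arms. AKR1C2, whose reads may be split with AKR1C3 and other near-identical relatives, had 602 CPM at 72 h and 110.1 CPM at 6 h of inhibitor, against 405 CPM at 72 h and 114 CPM at 0 h untreated. AKR1B10 had 138 CPM at 72 h and 42.4 CPM at 6 h of inhibitor, against 189 CPM at 72 h and 50.9 CPM at 0 h untreated. Their 72 h levels were several-fold above the earlier ones with and without inhibitor. Members that were lower included GCLC, of glutathione synthesis, 1.74-fold (1.7 to 1.78) lower (125 and 217 CPM), and TXNRD1, thioredoxin reductase, 1.75-fold (1.72 to 1.78) lower (290.3 and 508 CPM at 72 h and 6 h). Both were higher at 72 h untreated (1.42-fold higher and 1.39-fold higher). Among cytosolic heat shock genes, HSPB1 had 349.6 CPM at 72 h and 130.4 CPM at 6 h of inhibitor, against 589 CPM at 72 h and 197 CPM at 0 h untreated. HSP90AA1 had 819 CPM at 72 h and 1667 CPM at 6 h of inhibitor, against 1437 CPM at 72 h and 1995 CPM at 0 h untreated. The small chaperone HSPB1 was higher and the HSP90 gene lower at 72 h in both arms, and the list's median of -0.04 turned to 0.09 under median-of-ratios scaling. Of 36 autophagy and lysosome genes, 28 were higher at 72 h of inhibitor, 13 more than 1.5-fold, and 1 was more than 1.5-fold lower. Untreated, 32 of 35 were higher as well, 7 of them more than 1.5-fold. CTSL, cathepsin L, had 52.5 CPM at 72 h and 11.4 CPM at 6 h of inhibitor, against 37.1 CPM at 72 h and 13.7 CPM at 0 h untreated. SQSTM1, the autophagy receptor p62, had 769 CPM at 72 h and 331 CPM at 6 h of inhibitor, against 274 CPM at 72 h and 251 CPM at 0 h untreated. SQSTM1 stood out at 72 h of inhibitor, while CTSL was also higher at 72 h than at 0 h untreated.

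Genes of protein synthesis split by class. All 40 cytosolic ribosomal protein and elongation genes measured were higher at 72 h of inhibitor, 14 more than 1.5-fold, with a median of 0.53, against -0.17 untreated. RPS27, a small subunit protein gene, had 3968 CPM at 72 h and 1723 CPM at 6 h of inhibitor, against 1992 CPM at 72 h and 1754 CPM at 0 h untreated. EEF1A1, the elongation factor, which has many pseudogenes, had 9221 CPM at 72 h and 4427 CPM at 6 h of inhibitor, against 4581 CPM at 72 h and 4280.4 CPM at 0 h untreated. Of 18 snoRNA host transcripts, which carry small nucleolar RNAs in their introns and are often degraded when translated, all 18 were higher and 15 more than 1.5-fold, with a median of 1.64, against 0.42 untreated. SNHG12 had 208 CPM at 72 h and 23 CPM at 6 h of inhibitor, against 29.9 CPM at 72 h and 20.5 CPM at 0 h untreated. GAS5, a host transcript that accumulates in growth arrest, had 2399.9 CPM at 72 h and 569 CPM at 6 h of inhibitor, against 999 CPM at 72 h and 532 CPM at 0 h untreated. ZFAS1 had 3450.4 CPM at 72 h and 805 CPM at 6 h of inhibitor, against 1213 CPM at 72 h and 694 CPM at 0 h untreated. For all of these 72 h of inhibitor was far above the other 3 libraries, by 9.07-fold (8.69 to 9.47) over 6 h for SNHG12. EPB41L4A-AS1, SNHG7, SNHG8 and SNHG1 were 6.66-fold, 4.94-fold, 4.37-fold and 3.43-fold higher, and untreated 1.64-fold higher, 1.51-fold higher, 1.16-fold higher and 1.15-fold lower, the first being an antisense gene with the same strand reservation as above. The snoRNA host and ribosomal totals had a Spearman correlation across cells of 0.65 at 72 h and 0.37 at 6 h. The median differences from the untreated ratio, 0.72 for ribosomal genes and 1.10 for host transcripts, kept their sign under median-of-ratios scaling.

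Ribosome biogenesis genes lay near the background of all genes: 5 of 27 were more than 1.5-fold lower at 72 h of inhibitor and 0 higher, with a median of -0.20, against -0.18 over all genes. Untreated, 13 of 27 were more than 1.5-fold lower and 0 higher, with a median of -0.55. NCL, nucleolin, had 425 CPM at 72 h and 1140.1 CPM at 6 h of inhibitor, against 469 CPM at 72 h and 1154 CPM at 0 h untreated. NOP56, a snoRNP protein gene, had 64.9 CPM at 72 h and 205 CPM at 6 h of inhibitor, against 103 CPM at 72 h and 255 CPM at 0 h untreated. Both were lower at 72 h in either arm. Mitochondrially encoded transcripts were lower, 8 of 13 more than 1.5-fold, with a median of -1.29 under the inhibitor and 0.19 untreated. MT-ATP6 had 1188 CPM at 72 h and 6516 CPM at 6 h of inhibitor, against 5469 CPM at 72 h and 5343 CPM at 0 h untreated. MT-CO3 had 2070.1 CPM at 72 h and 6651 CPM at 6 h of inhibitor, against 6533 CPM at 72 h and 6532 CPM at 0 h untreated. MT-ND4, by contrast, had 9509 CPM at 72 h and 7174 CPM at 6 h of inhibitor, against 8234 CPM at 72 h and 5714 CPM at 0 h untreated, and was higher at 72 h in both arms. The cells' median share of mitochondrial UMIs was 3.31% at 72 h and 6.06% at 6 h of inhibitor, against 6.17% at 72 h and 5.63% at 0 h untreated. The part of cell quality in these ratios was not tested. Nuclear-encoded respiratory chain genes differed little, with 1 of 38 more than 1.5-fold higher and 6 lower and a median of -0.19, near that of all genes.

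Signalling targets downstream of EGFR, which this line carries at high level, were lower. EGFR itself had 2391 CPM at 72 h and 4397 CPM at 6 h of inhibitor, against 2570 CPM at 72 h and 2477 CPM at 0 h untreated, so 6 h of inhibitor stood above the rest. Of 20 EGFR ligand and MAPK feedback genes, 10 were more than 1.5-fold lower at 72 h of inhibitor and 2 higher, with a median of -0.60, and untreated 0 of 19 were lower and 3 higher, with a median of 0.16. AREG, the ligand amphiregulin, had 12.5 CPM at 72 h and 77.4 CPM at 6 h of inhibitor, against 27.3 CPM at 72 h and 38.3 CPM at 0 h untreated. FOSL1, a MAPK-driven factor, had 31.8 CPM at 72 h and 137 CPM at 6 h of inhibitor, against 62.6 CPM at 72 h and 53 CPM at 0 h untreated. Each was highest at 6 h of inhibitor and lowest at 72 h of inhibitor, 6.21-fold (5.83 to 6.63) and 4.3-fold (4.13 to 4.48) apart. SPRY1, a feedback inhibitor, was 2.79-fold (2.62 to 2.97) higher (36.1 and 12.9 CPM) and 1.73-fold higher untreated. Immediate early genes had a median of -0.37 under the inhibitor and 0.58 untreated. EGR1 had 17.8 CPM at 72 h and 45.6 CPM at 6 h of inhibitor, against 85.6 CPM at 72 h and 66.6 CPM at 0 h untreated. IER5, a stress-responsive member, had 238 CPM at 72 h and 96.2 CPM at 6 h of inhibitor, against 128 CPM at 72 h and 94.4 CPM at 0 h untreated. EGR1 thus resembled FOS and NR4A1 above, and IER5 ran against them. Both median differences, -0.95 for the MAPK list and -0.92 for the immediate early list, stayed negative under median-of-ratios scaling.

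YAP-TEAD targets, which report on cell shape and density, were lower in 15 of 18 cases and more than 1.5-fold in 11. Untreated, 1 of 17 was more than 1.5-fold higher and 2 lower. CCN2, the matricellular growth factor gene, had 4.78 CPM at 72 h and 34 CPM at 6 h of inhibitor, against 46.1 CPM at 72 h and 45.3 CPM at 0 h untreated, and was 7.12-fold (6.43 to 7.91) lower under the inhibitor and 1.02-fold higher untreated. F3, tissue factor, had 35.9 CPM at 72 h and 179 CPM at 6 h of inhibitor, against 46.6 CPM at 72 h and 65.1 CPM at 0 h untreated. TGFB2, a secreted cytokine gene, had 98.5 CPM at 72 h and 261 CPM at 6 h of inhibitor, against 147 CPM at 72 h and 147 CPM at 0 h untreated. F3 and TGFB2 were highest at 6 h of inhibitor, and CCN2 was lowest of the 4 libraries at 72 h of inhibitor. In the recovery library CCN2 was as low, at 4.36 CPM.

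Basal keratins and adhesion genes were lower in 17 of 20 cases, 14 more than 1.5-fold, with a median of -0.84 under the inhibitor and -0.24 untreated. KRT5, the basal keratin, had 88.4 CPM at 72 h and 363 CPM at 6 h of inhibitor, against 113 CPM at 72 h and 331 CPM at 0 h untreated. Its partner KRT14 had 3.49 CPM at 72 h and 22.3 CPM at 6 h of inhibitor, against 7.27 CPM at 72 h and 15.7 CPM at 0 h untreated. Both were low at 72 h with and without inhibitor. The list's summed level was 2771 CPM at 72 h and 3814 CPM at 6 h of inhibitor. Untreated, it was 2139 CPM at 72 h and 2265 CPM at 0 h. The sum was thus highest of the 4 libraries at 6 h of inhibitor, and at 72 h of inhibitor above both untreated libraries. KRT81, another basal keratin, ran against KRT5, with 1555 CPM at 72 h and 1241 CPM at 6 h of inhibitor. Untreated, KRT81 had 907 CPM at 72 h and 715 CPM at 0 h. ITGB4 and LAMB3, parts of the hemidesmosome and its laminin, were 3.21-fold (3.03 to 3.41) and 3.17-fold (2.89 to 3.49) lower at 16.7 and 53.5 CPM and 6.44 and 20.4 CPM, and 2.17-fold lower and 3.54-fold lower untreated. Of 25 epithelial and luminal genes, 11 were more than 1.5-fold lower at 72 h of inhibitor and 5 higher, with a median of -0.40. Untreated, 3 of 26 were lower and 5 higher, with a median of 0.30, and the median difference of -0.30 turned to 0.11 under median-of-ratios scaling. The claudin CLDN3, a tight junction protein gene, had 118 CPM at 72 h and 34.4 CPM at 6 h of inhibitor, against 94.4 CPM at 72 h and 43.2 CPM at 0 h untreated. ELF3, an epithelial transcription factor, had 826 CPM at 72 h and 329 CPM at 6 h of inhibitor, against 476 CPM at 72 h and 319 CPM at 0 h untreated. KRT8, a luminal keratin, had 520.0 CPM at 72 h and 1295 CPM at 6 h of inhibitor, against 967 CPM at 72 h and 1438 CPM at 0 h untreated. CLDN3 and ELF3 were highest, and KRT8 lowest, at 72 h of inhibitor. The calprotectin and antimicrobial list was evenly split, with 4 of 13 more than 1.5-fold higher and 4 lower under the inhibitor (median -0.28) and 7 of 13 higher and 0 lower untreated (median 0.61). Its median difference of 0.0022 became 0.41 under median-of-ratios scaling. S100A9, the second calprotectin subunit, had 1119 CPM at 72 h and 4871 CPM at 6 h of inhibitor, against 11356 CPM at 72 h and 6076 CPM at 0 h untreated. PI3, the protease inhibitor elafin, had 12.3 CPM at 72 h and 52.1 CPM at 6 h of inhibitor, against 74.5 CPM at 72 h and 66.5 CPM at 0 h untreated. As with S100A8 and S100A7, these 4 libraries put 72 h of inhibitor lowest and 72 h untreated highest. Per cell, the list's median total, a sum in which abundant members weigh most, was 17 UMIs at 72 h and 39 at 6 h of inhibitor, against 79 at 72 h and 48 at 0 h untreated. LCN2, lipocalin, which shares the list, was higher at 72 h in both arms, with 1041 CPM at 72 h and 509 CPM at 6 h of inhibitor, against 913 CPM at 72 h and 534 CPM at 0 h untreated.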

How the data were processed

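The authors deposited a matrix of raw UMI counts for each library, made with Cell Ranger 7.1.0 on GRCh38 according to the submitters' processing notes. Which annotation release, intron setting and strand setting they used is not given in the sources used here. Cells were dissociated with trypsin and prepared with a 10x 3' v3.1 kit, per the labels' protocols. Gene positions come from GENCODE 29 and promoters from RefSeq.

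Cells with at least 1000 genes and at most 20% mitochondrial UMIs were kept, and doublets were not removed. CPM values are the deposited counts summed over a library's kept cells and divided by their total. Genes of at least 10 CPM in 1 of the libraries compared were used, with a floor of 3 counts for a sum of 0. Intervals of folds are exact (Clopper-Pearson, given both libraries' summed counts). Intervals of shares are exact binomial intervals over cells, which treat the cells of 1 library as independent draws. For per-cell totals, cells were thinned to 5000 UMIs. This left out 59 shallower cells at 72 h and 10 at 6 h of inhibitor, and 35 at 72 h and 5 at 0 h untreated.

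The members and gene lists were chosen with earlier results of these data known. Genes of at least 20 CPM in an inhibitor library were named by rank, leaving out clone-style, LINC and mitochondrial names: the 12 highest and 12 lowest by the smaller of the inhibitor log2 ratio and its difference from the untreated one, 5 a side by the smaller of both ratios, up to 6 a side past 1.5-fold in opposite directions, and up to 4 a list. ACACA, ACACB, HSPA5, DDIT3, ATF4 and XBP1 were added, a selection is printed, and further list members were chosen after their values were seen. A set of 13 alternatives was run. Data were simulated for 72 h against 6 h of inhibitor (8892 genes) with counting error only, as Poisson draws at the libraries' own UMI totals. There 200 of 200 altered genes came out in the right direction, 95.5% of their intervals held the true fold, and 0 of 8692 unaltered genes passed 2-fold. With no spread between cells or cultures simulated, this checks the calculation and gives no rate of false calls for the real libraries. Tools were scipy 1.17.1, pandas 2.3.3, numpy 2.4.6 and matplotlib 3.10.9 under Python 3.11.15. Some genes that met the rule for named genes are not reported here.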

Additional observations from a re-analysis of the deposited data

Results flagged for a closer look

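In 8 named genes the inhibitor ratio (72 h over 6 h) lay more than 2-fold below 1 while the untreated ratio (72 h over 0 h) lay more than 2-fold above it. They are given because the arms moved in opposite directions, and with 1 library a group the difference was not tested. CHAC1 stayed below 10 CPM in both untreated libraries. Under median-of-ratios scaling all 8 kept opposite signs, but the untreated log2 ratio was 0.72 to 0.98, and so under 2-fold, for 6 of them (S100A8, FOS, ANKS1B, NR4A1, SPRY4-AS1 and SESN2), and the inhibitor log2 ratio of ANKS1B was -0.98. The inhibitor log2 ratio minus the untreated one was -5.44 for S100A8, the calprotectin subunit gene, and -3.59 for CHAC1, the glutathione-degrading enzyme gene. It was -3.59 for SPRY4-AS1, an antisense transcript. For the immediate early genes it was -3.03 for NR4A1 and -2.48 for FOS. For the amino acid stress genes it was -2.9 for SLC7A11 and -2.54 for SESN2. ANKS1B, a scaffold protein gene, had a difference of -2.27, with 13.9 CPM at 72 h and 29.9 CPM at 6 h of inhibitor, against 46 CPM at 72 h and 20.5 CPM at 0 h untreated. S100A8, NR4A1, FOS and ANKS1B had their highest level at 72 h untreated and their lowest at 72 h of inhibitor. CHAC1, SLC7A11 and SESN2 had their highest level of the 4 libraries at 6 h of inhibitor and their lowest at 0 h untreated. SESN2 was higher still in the recovery library, at 41.8 CPM.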

How the results depend on the processing

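No paired analysis was possible because each group has 1 library. Counts of genes more than 2-fold higher and lower are given in that order. For 72 h over 6 h of inhibitor they were 427 and 1052, with 2865 and 4200 without an expression minimum, 170 and 392 at a minimum of 50 CPM, and 1136 and 2361 at 1.5-fold. For the untreated ratio they were 517 and 138, with 235 and 335 under median-of-ratios scaling, 263 and 277 under trimmed-mean-of-M-values scaling, 4707 and 1069 without a minimum, 122 and 61 at 50 CPM, and 1482 and 577 at 1.5-fold. For the difference of the ratios they were 114 and 1204, with 491 and 458 under median-of-ratios, 426 and 498 under trimmed-mean scaling, 174 higher with totals free of mitochondrial and ribosomal genes, 1127 and 5812 without a minimum, 59 and 398 at 50 CPM, and 499 and 2815 at 1.5-fold. Of 35 list medians of the difference, 17 turned sign under median-of-ratios and 16 under trimmed-mean scaling.

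Share of 72 h inhibitor cells past the 6 h library's percentile, main value at 5000 UMIs: for S phase below the 10th percentile 45.7%, and 56.6% at 10000 UMIs and 63.9% without thinning; for G2/M 26.2%, and 31.9% without thinning; for ER chaperones above the 90th percentile 41.4%, and 47.6% and 56.1%; for the CHOP branch 64.8%, and 74.3% and 88.7%. List medians under the inhibitor that turned sign were serine synthesis (0.050, 0.061 and 0.035) and tRNA synthetases (0.11, 0.12 and 0.094) under median-of-ratios, trimmed-mean and mitochondrial- and ribosomal-free scaling, and heat shock under these (0.089, 0.099 and 0.074), in thinned cells (0.0069) and in cells low in both cell cycle lists (0.082). ER-associated degradation was -0.074 at 50 CPM, glycerolipids -0.043 and NF-kB targets -0.00065 without a minimum, BCL2 family -0.0047 in deep cells, and G2/M 0.050 in low-cycle cells. The cause was not tested.

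In the low-cycle cells the inhibitor log2 ratio of RRM2 was -2.21 in place of -3.27, of ANLN -1.04 in place of -2.04, of ASPM -1.26 in place of -1.97 (-1.38 with equal weight per cell), and of CDKN1A -0.75 in place of -1.42. Those cells were chosen on their S phase and G2/M list totals, which include RRM2, ANLN and ASPM. SLC6A14 was -3.55 there in place of -2.81, SPRY4-AS1 -1.69 in place of -2.35, MYLIP 2.89 in place of 2.13 and KRT14 -2.07 in place of -2.68. In thinned cells ANGPTL4 was 3.98 in place of 4.84, DKK1 -3.43 in place of -4.03, and CDKN1A -2.13.

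With 1 library a group, intervals cover counting error only and say nothing of spread between cultures. Exposure, time in culture and library cannot be told apart. The untreated ratio starts at 0 h and not at 6 h. Genes below 10 CPM in both libraries of a ratio were left out of its counts and medians, and depth limits shares of cells with a UMI.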

Other observations

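Interferon-stimulated and antigen presentation genes were mostly higher at 72 h in both arms. Of 13 interferon genes measured, 7 were more than 1.5-fold higher at 72 h than at 6 h of inhibitor and 1 lower (median 0.77), and 8 were higher and 0 lower untreated (median 0.82). IRF1, an interferon response factor, had 92.5 CPM at 72 h and 34.9 CPM at 6 h of inhibitor, against 97.4 CPM at 72 h and 40.8 CPM at 0 h untreated. BST2, a tether of viral particles, had 32.5 CPM at 72 h and 10.4 CPM at 6 h of inhibitor, against 63.9 CPM at 72 h and 11.9 CPM at 0 h untreated. SAMD9, a restriction factor, ran against them at 3.61 and 17.6 CPM with inhibitor and 14 and 16.1 CPM without. Of 13 class I presentation genes, 12 were higher under the inhibitor, 5 more than 1.5-fold, with HLA-E at 129 and 68.9 CPM and PSMB9, an immunoproteasome subunit gene, at 92.9 and 45 CPM at 72 h and 6 h. Untreated, HLA-E had 115 and 75.3 CPM and PSMB9 135 and 55.8 CPM at 72 h and 0 h, so both arms leaned the same way.

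Of 12 NF-kB targets, 5 were more than 1.5-fold higher at 72 h of inhibitor and 3 lower. ICAM1, an adhesion receptor gene, had 44.6 CPM at 72 h and 17.1 CPM at 6 h of inhibitor, against 35.3 CPM at 72 h and 14.9 CPM at 0 h untreated. NFKB1 and RELB, subunits of the factor, were 2.08-fold (1.95 to 2.22) and 2.02-fold (1.9 to 2.15) lower at 14.8 and 30.9 CPM and 17.4 and 35.1 CPM, and 1.18-fold lower and 1.11-fold lower untreated. Of 28 hypoxia and glycolysis genes, 10 were more than 1.5-fold lower and 2 higher, and untreated 10 of 26 were lower and 4 higher. PKM, pyruvate kinase, had 166 CPM at 72 h and 533 CPM at 6 h of inhibitor, against 319 CPM at 72 h and 640.4 CPM at 0 h untreated. LDHA, lactate dehydrogenase, had 399.7 CPM at 72 h and 971 CPM at 6 h of inhibitor, against 579 CPM at 72 h and 1155 CPM at 0 h untreated. NDRG1, a hypoxia and stress gene, had 36.8 CPM at 72 h and 20.8 CPM at 6 h of inhibitor, against 4.08 CPM at 72 h and 5.43 CPM at 0 h untreated. PKM and LDHA were lower at 72 h in both arms, whereas NDRG1 was higher in both inhibitor libraries than in either untreated one.

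The G2/M total of a thinned cell and its UMI count before thinning had a Spearman correlation of 0.17 across 1868 cells at 72 h of inhibitor and 0.52 across 2996 cells at 6 h. By gene length, the 899 genes of longest genomic span had a median log2 ratio of -0.47 under the inhibitor and the 899 shortest -0.13. Untreated, the medians were 0.31 for the 893 longest and -0.077 for the 895 shortest.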
